A study of Mus musculus with 10 samples.

Results

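The lysosome breaks down proteins, sugars and lipids that reach it by endocytosis, phagocytosis and autophagy. Its acid hydrolases are made in the endoplasmic reticulum, sorted by receptors in the Golgi apparatus and activated at low pH behind a membrane of heavily glycosylated proteins. Many of the genes share an E-box-like promoter element, and TFEB is a transcription factor known to bind it. In brain, microglia, the resident macrophages, are rich in lysosomes, and neurons and astrocytes use the same enzymes.

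The 37 genes described here are lysosomal hydrolases, their cofactors, lysosomal membrane proteins and Tfeb, chosen by symbol from the 20156 rows of a hippocampal count table. All 37 had a row and all 37 passed the filter on low counts, which kept 16180 rows. The table holds 5 wild-type mice (WT 1 to 5) and 5 mice of the genotype labelled Tfam AKO (TfamAKO 1 to 5), all mice aged 6 months, with 1 hippocampal library each of stranded mRNA. By its title the series concerns the mitochondria of astrocytes. No allele, Cre driver, strain, sex or litter is given by the labels. All 8 markers of hippocampal neurons passed the filter. Tfam encodes the protein that packages and helps to transcribe mitochondrial DNA.

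The gene named in the genotype came first. CPM is the usual scale of counts relative to library size, here after TMM scaling. The level of Tfam was 31.7, 33.0, 20.6, 32.5 and 30.4 CPM in WT 1 to 5 and 23.6, 22.7, 19.6, 23.1 and 23.4 CPM in TfamAKO 1 to 5. The log2 fold change, TfamAKO minus WT, was -0.40 ± 0.12 (SE, n = 5 per group, edgeR adjusted p = 0.0204). Adjusted p-values are from edgeR, a model of counts, with the Benjamini-Hochberg method over all genes tested, and differences past 0.05 are called higher or lower. WT 3 lay among the TfamAKO libraries, so the groups overlapped, and the tissue holds cells of many types. WT libraries held 16584245 to 26032470 counts in total, and TfamAKO libraries held 19558377 to 28675367.

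Some libraries stood apart before any lysosomal gene was considered. The 10 choroid plexus markers summed to between 46.3 and 5752 CPM in the WT libraries, with WT 3, WT 4 and WT 5 at 2854 CPM or more. In the TfamAKO libraries they summed to between 40.9 and 136 CPM. The Y-linked transcripts Kdm5d and Uty summed to 33.3 CPM in TfamAKO 4 and 34.0 CPM in TfamAKO 5, against at most 1.15 CPM in the other 8 libraries. Xist, a transcript of female cells, was at 0.141 CPM in TfamAKO 4 and 0 CPM in TfamAKO 5. In the other 8 libraries it was at 200.6 to 467.3 CPM. By these transcripts TfamAKO 4 and TfamAKO 5 read as male and the other 8 libraries as female, so sex was not balanced between the genotypes. Calls that changed without these libraries are therefore also given, with the values of some of the genes that moved.

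Promoter sequences of several of these genes carry the E-box core CACGTG, and a few are shown because Tfeb is among the genes that changed. RefSeq windows on GRCm38.p6, from 250 bases before to 50 bases after an annotated start, were found for 33 of the 37 genes (39 windows). None was in the table for Ctsb, Ctsh, Asah1 and Npc1. The first pair of stretches covers the 150 bases before the start of Lamp1, which holds 4 copies of the core, and of Ctss, which holds none. Capitals mark CACGTG, and each stretch reads 5′ to 3′ on the strand of its gene.
Lamp1, chr8:13159011-13159160, plus strand: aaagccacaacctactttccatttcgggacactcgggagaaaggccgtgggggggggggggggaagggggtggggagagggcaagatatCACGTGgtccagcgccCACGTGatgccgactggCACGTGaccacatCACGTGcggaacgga
Ctss, chr3:95526636-95526785, plus strand: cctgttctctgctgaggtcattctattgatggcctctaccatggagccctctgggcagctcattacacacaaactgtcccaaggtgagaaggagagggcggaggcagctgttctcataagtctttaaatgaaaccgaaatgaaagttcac

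The longer palindrome TCACGTGA, which contains the core, was found in the windows of 5 genes: Cln3, Ctsa, Ctsd, Gla and Mcoln1. The 30 bases around their match nearest to the start, before it, are given with those of Naglu, which has the core alone. The first base of the core lay 121 bases before the start in Cln3, 12 in Ctsa, 98 in Ctsd, 194 in Gla, 45 in Mcoln1 and 73 in Naglu.
Cln3, chr7:126583340-126583369, minus strand: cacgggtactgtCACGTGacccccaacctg
Ctsa, chr2:164833749-164833778, plus strand: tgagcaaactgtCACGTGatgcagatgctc
Ctsd, chr7:142387908-142387937, minus strand: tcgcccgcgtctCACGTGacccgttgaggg
Gla, chrX:134601182-134601211, minus strand: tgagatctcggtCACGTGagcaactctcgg
Mcoln1, chr8:3500462-3500491, plus strand: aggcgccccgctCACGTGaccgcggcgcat
Naglu, chr11:101070009-101070038, plus strand: caaccttcaggtCACGTGgcccgaggtcgg

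Both motifs are palindromes, so each match reads the same on both strands. CACGTG was found in windows of 12 of the 33 genes (36.4%), against 11.1% of the genes tested here that have a window. By window, it was 12 of 39 (30.8%), against 9.33% for the genes tested here and 7.15% of all 32851 windows in the table. TCACGTGA was found in 5 of 33 genes (15.2%), against 1.97% of the genes tested here. By window, its share was 12.8%, against 1.64% for the genes tested here and 0.974% of all windows. The core was found in 9 of 25 genes that were higher in TfamAKO (36%) and in 3 of 8 that did not pass the expression test (37.5%). Of the 20 matches, 15 began within 150 bases before the start. A match describes these letters in these windows and does not show binding.

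**Figure D1:**
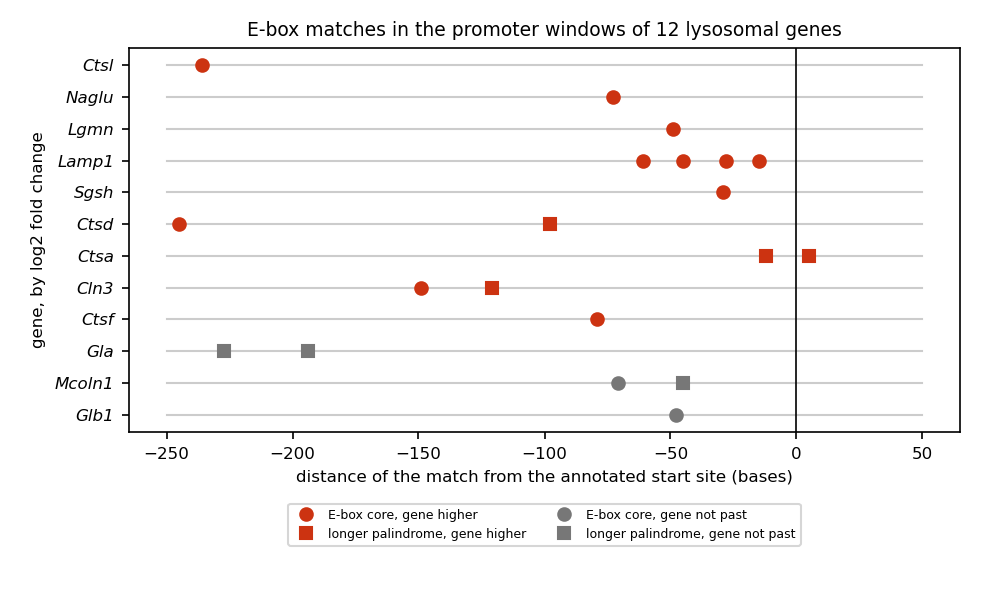
Distance of each E-box match from the annotated start site (x axis, bases; negative is before the start) in 12 genes, ordered by log2 fold change (y axis). Circles mark the core alone and squares the longer palindrome; red genes were higher in TfamAKO and grey genes did not pass the test. Lamp1 holds 4 matches, and the 3 grey genes carry matches as the red ones do.

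Most of the 37 transcripts were higher in the TfamAKO hippocampus, with some higher in each of the 5 kinds of protein. The 37 were chosen with earlier results of these data known. Of the 37 genes, 29 (78.4%) were higher, 0 were lower and 8 did not pass a threshold of 0.05 on edgeR's adjusted p. Over all 16180 genes tested, 20.8% were higher, 16.6% were lower and 37.4% changed in either direction. At an unadjusted p under 0.05, edgeR found 30 of the 37 higher and 0 lower. DESeq2 found 29 higher and 0 lower after adjustment (30 and 0 before it), and limma-voom 28 and 0 (31 and 0 before it). The median log2 fold change was 0.72 over the 37 genes and -0.02 over all genes tested. In 26 of the 37, every TfamAKO library lay above every WT library, which was so for 14.5% of all genes tested. In these bulk samples, more cells of a type and more RNA per cell cannot be told apart.

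**Figure D2:**
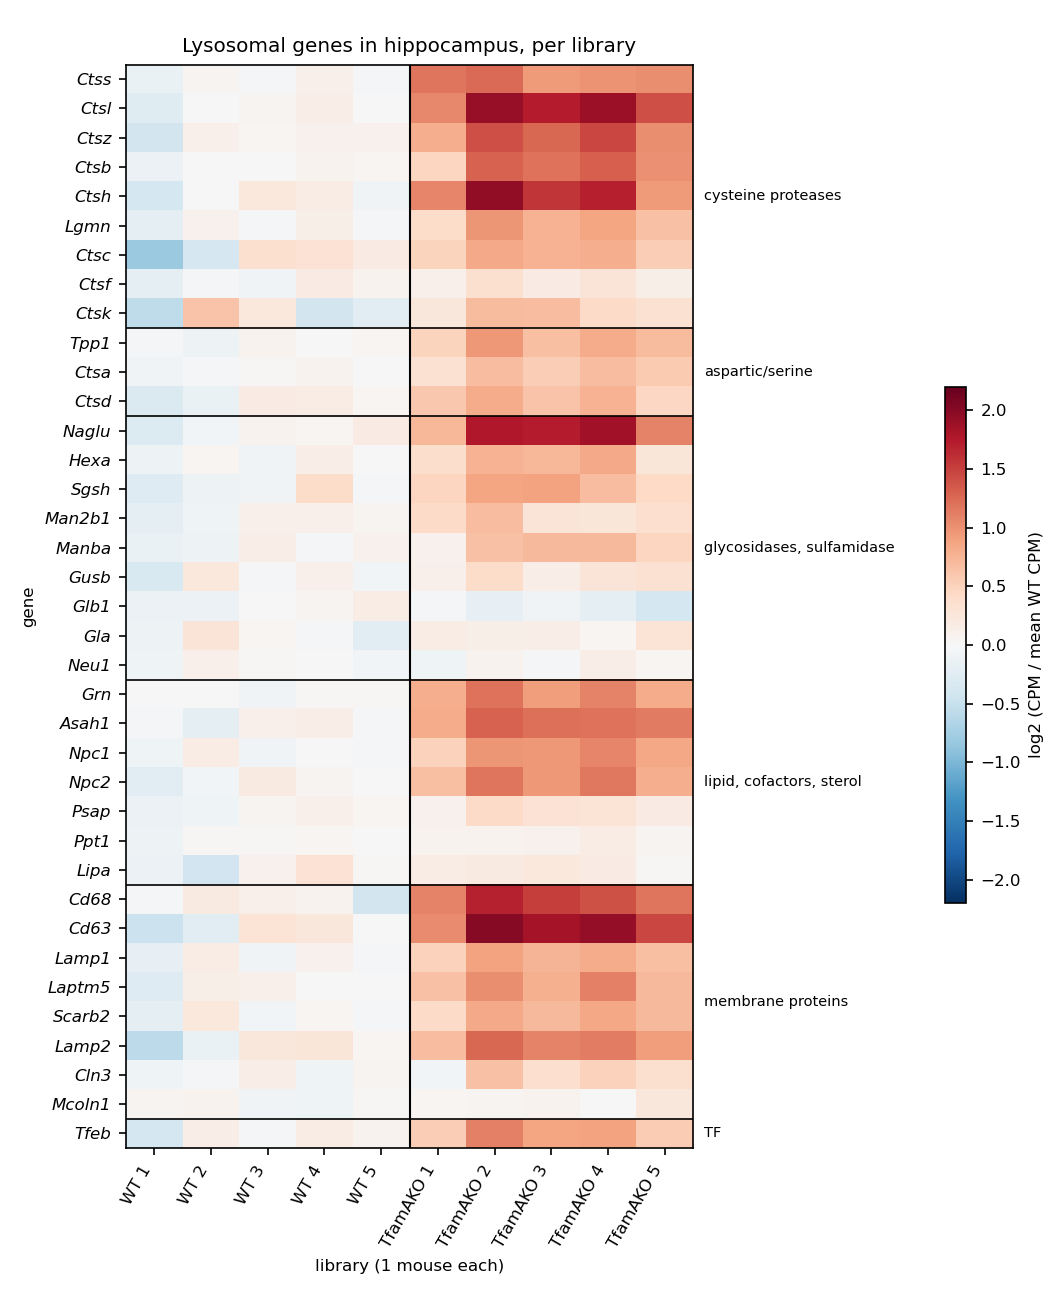
Level of each gene (rows, by role, smallest p first) in each library (columns), as log2 of CPM over the WT mean, from blue (lower) through white to red (higher). The TfamAKO columns are red for most genes, often palest in TfamAKO 1, and near white for some, such as Neu1, Ppt1 and Mcoln1.

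The 37 genes together took up 0.390 to 0.478% of the counts of WT libraries and 0.593 to 0.788% of those of TfamAKO libraries. Their summed level was 3977, 4385, 4629, 4803 and 4559 CPM in WT 1 to 5 and 5814, 7884, 7184, 7558 and 6519 CPM in TfamAKO 1 to 5. The lowest TfamAKO library lay above the highest WT library. The ratio of the group means was 1.56. It was 2.11 for the cysteine proteases, 1.80 for the membrane proteins, 1.57 for the aspartic and serine proteases, 1.33 for the glycosidases and 1.28 for the lipid group.

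**Figure D3:**
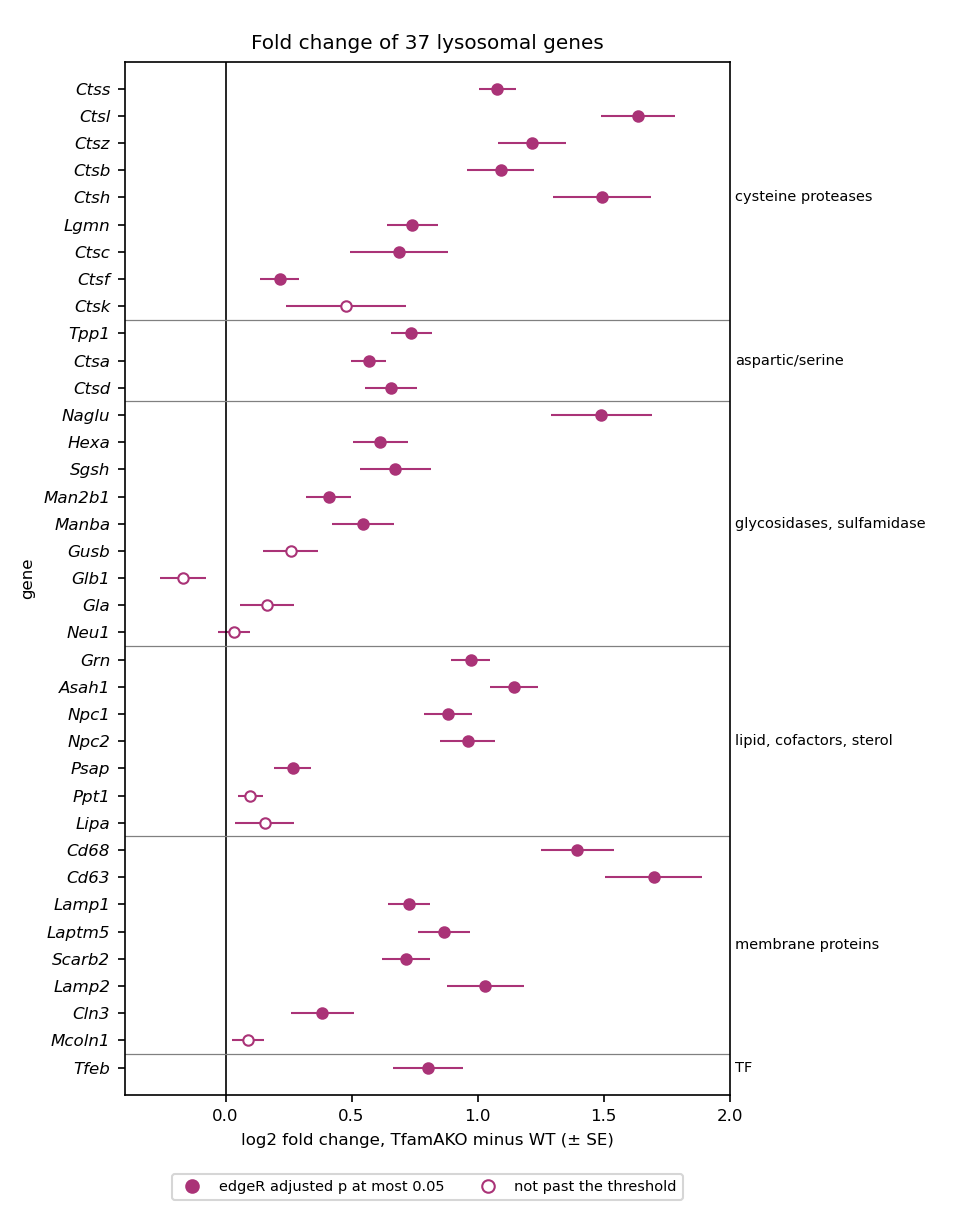
Log2 fold change, TfamAKO minus WT, with its standard error (x axis) for each gene (y axis, by role; 5 libraries per group). Filled points passed edgeR's adjusted p threshold of 0.05 and open points did not; Cd63 at 1.70 and Ctsl at 1.64 lie farthest to the right and Glb1 alone lies left of 0, at -0.17.

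Cysteine proteases cut proteins in the acid lumen, and 8 of the 9 were higher, with a median log2 fold change of 1.08. Ctss encodes cathepsin S, a protease of antigen-presenting cells that stays active at neutral pH. Its level was 54.1, 62.2, 58.1, 64.4 and 58.8 CPM in WT 1 to 5 and 135, 141, 115, 118 and 121 CPM in TfamAKO 1 to 5. The 2 groups were far apart compared with their spread, and the log2 fold change was 1.08 ± 0.07 (edgeR adjusted p = 1.20e-06). Ctsl, cathepsin L, was at 65.0, 78.0, 81.5, 85.5 and 78.6 CPM in WT 1 to 5 and 163, 293, 257, 288 and 209 CPM in TfamAKO 1 to 5. TfamAKO 1 was the lowest of its group and still lay above all WT libraries, with a log2 fold change of 1.64 ± 0.15 (edgeR adjusted p = 1.00e-05). Ctsz encodes cathepsin Z, a carboxypeptidase, at 31.4, 44.9, 43.1, 44.5 and 44.6 CPM in WT 1 to 5 and 72.7, 112, 100.1, 115 and 84.9 CPM in TfamAKO 1 to 5. WT 1 was low within its group, and the log2 fold change was 1.22 ± 0.14 (edgeR adjusted p = 4.78e-05). Ctsb, cathepsin B, was at 454, 495, 489, 521 and 511 CPM in WT 1 to 5 and 689, 1216, 1137, 1227 and 993 CPM in TfamAKO 1 to 5. The groups did not overlap, and the log2 fold change was 1.09 ± 0.13 (edgeR adjusted p = 8.56e-05).

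Of the other cysteine proteases, Ctsh, an aminopeptidase, went from a mean of 8.64 ± 1.39 to 24.4 ± 7.02 CPM (SD, n = 5), a log2 fold change of 1.49 ± 0.19 (edgeR adjusted p = 1.32e-04). Lgmn, legumain, which cuts after asparagine and processes other cathepsins, had a log2 fold change of 0.74 ± 0.10 (edgeR adjusted p = 1.94e-04). Ctsc, which activates granule serine proteases, was at 6.70, 9.18, 15.2, 14.7 and 13.5 CPM in WT 1 to 5 and 16.6, 21.3, 20.2, 20.7 and 17.2 CPM in TfamAKO 1 to 5. WT 3, WT 4 and WT 5, the libraries with choroid plexus transcripts, were higher than WT 1 and WT 2, and the log2 fold change of 0.69 ± 0.20 (edgeR adjusted p = 0.0160) became 1.29 without them. Ctsf, cathepsin F, had 0.21 ± 0.08 (edgeR adjusted p = 0.0470) with overlapping groups. Its call was lost when any of WT 1, WT 2, WT 3, WT 5, TfamAKO 2, TfamAKO 3 or TfamAKO 4 was left out, with edgeR adjusted p of 0.0703 to 0.119. Ctsk, cathepsin K, a collagenase best known from osteoclasts, was at 0.48 ± 0.24 (edgeR adjusted p = 0.132) with means under 3 CPM. Without WT 2, its highest WT library, it was 0.71 (edgeR adjusted p = 0.0251).

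All 3 aspartic and serine proteases were higher, each with no overlap between the groups. Tpp1, a tripeptidyl peptidase whose loss causes a childhood neuronal ceroid lipofuscinosis, was at 67.1, 63.2, 72.3, 68.2 and 70.1 CPM in WT 1 to 5 and 95.8, 132, 108, 121 and 111 CPM in TfamAKO 1 to 5. This gave a log2 fold change of 0.74 ± 0.08 (edgeR adjusted p = 4.17e-05). Ctsa, a carboxypeptidase that also protects beta-galactosidase and neuraminidase 1 in a complex, was at 86.0, 88.1, 91.8, 95.7 and 91.3 CPM in WT 1 to 5 and 114, 145, 131, 146 and 136 CPM in TfamAKO 1 to 5. Its log2 fold change was 0.57 ± 0.07 (edgeR adjusted p = 8.85e-05), while the genes of its partners, Glb1 and Neu1, did not pass the test. Ctsd, cathepsin D, the main aspartic protease of the lysosome, was at 345, 385, 487, 478 and 443 CPM in WT 1 to 5 and 642, 755, 661, 726 and 587 CPM in TfamAKO 1 to 5. WT 3 to 5 lay above WT 1 and WT 2 here too, and the log2 fold change was 0.66 ± 0.10 (edgeR adjusted p = 4.66e-04). Without WT 3 to 5 the Ctsd value was 0.91.

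The enzymes that remove sugars and sulfates were divided, with 5 of 9 higher and a median log2 fold change of 0.41. Naglu and Sgsh carry out steps in the breakdown of heparan sulfate and are the genes of Sanfilippo syndromes. Naglu was at 9.71, 11.6, 12.7, 12.4 and 13.6 CPM in WT 1 to 5 and 20.0, 40.9, 39.8, 43.0 and 25.5 CPM in TfamAKO 1 to 5. TfamAKO 1 and TfamAKO 5 were well below the other 3 TfamAKO libraries, and all 5 lay above WT, with a log2 fold change of 1.49 ± 0.20 (edgeR adjusted p = 1.70e-04). Sgsh was at 8.24, 9.27, 9.46, 13.3 and 9.90 CPM in WT 1 to 5 and 13.9, 18.2, 18.4, 16.1 and 13.6 CPM in TfamAKO 1 to 5, a log2 fold change of 0.67 ± 0.14 (edgeR adjusted p = 0.00312). The highest WT library, WT 4, came close to the lowest TfamAKO library. Hexa, the alpha subunit of the enzyme that degrades GM2 ganglioside, was at 48.1, 53.3, 49.0, 57.7 and 51.5 CPM in WT 1 to 5 and 67.7, 88.7, 85.9, 92.6 and 62.6 CPM in TfamAKO 1 to 5. Its log2 fold change was 0.61 ± 0.11 (edgeR adjusted p = 0.00111), with TfamAKO 5 the lowest of its group. Man2b1, an alpha-mannosidase, was at 44.3, 48.1, 55.5, 55.9 and 53.5 CPM in WT 1 to 5 and 69.0, 82.0, 62.6, 61.8 and 66.6 CPM in TfamAKO 1 to 5. The groups did not overlap, and the log2 fold change was 0.41 ± 0.09 (edgeR adjusted p = 0.00445).

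Manba, the beta-mannosidase, was higher by 0.55 ± 0.12 on the log2 scale (edgeR adjusted p = 0.00490), with TfamAKO 1 inside the WT range. The other 4 glycosidases did not pass. Gusb, beta-glucuronidase, had a log2 fold change of 0.26 ± 0.11 (edgeR adjusted p = 0.0807), and without WT 2 it was 0.34 (edgeR adjusted p = 0.0381). Gla, the alpha-galactosidase lacking in Fabry disease, had 0.16 ± 0.11 (edgeR adjusted p = 0.254). Neu1, the sialidase, had 0.03 ± 0.06 (edgeR adjusted p = 0.690). Glb1, the beta-galactosidase whose activity is used as a stain for senescence, was the only gene of the 37 with a value below 0. It was at 20.8, 20.8, 22.8, 23.9 and 25.7 CPM in WT 1 to 5 and 22.5, 20.0, 21.7, 19.9 and 17.5 CPM in TfamAKO 1 to 5, with a log2 fold change of -0.17 ± 0.09 (edgeR adjusted p = 0.161) and overlapping groups.

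Among the genes for lipid breakdown, activator proteins and sterol export, 5 of 7 were higher and the median log2 fold change was 0.88. Grn encodes progranulin, a secreted protein that is cut into granulins in the lysosome and whose loss causes frontotemporal dementia. It was at 65.8, 65.4, 62.2, 66.8 and 66.8 CPM in WT 1 to 5 and 114, 150, 123, 139 and 115 CPM in TfamAKO 1 to 5. The WT libraries differed little, and the log2 fold change was 0.97 ± 0.08 (edgeR adjusted p = 4.52e-06). Asah1, acid ceramidase, was at 36.1, 31.8, 40.1, 40.9 and 35.8 CPM in WT 1 to 5 and 65.2, 91.0, 86.0, 85.0 and 81.2 CPM in TfamAKO 1 to 5, a log2 fold change of 1.14 ± 0.10 (edgeR adjusted p = 6.24e-06). Npc2 and Npc1 pass cholesterol from the lumen to the membrane and are mutated in Niemann-Pick disease type C. Npc1 was at 69.7, 83.3, 70.8, 75.0 and 72.8 CPM in WT 1 to 5 and 105, 145, 144, 157 and 134 CPM in TfamAKO 1 to 5, and its log2 fold change was 0.88 ± 0.10 (edgeR adjusted p = 4.16e-05). Npc2 was at 51.5, 57.7, 69.4, 62.9 and 60.1 CPM in WT 1 to 5 and 95.3, 136, 117, 134 and 105 CPM in TfamAKO 1 to 5, and its log2 fold change was 0.96 ± 0.11 (edgeR adjusted p = 5.03e-05). For all 4 genes each TfamAKO library lay above each WT library.

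Psap, the precursor of the saposins that present sphingolipids to hydrolases, went from a mean of 1733 ± 121 to 2084 ± 178 CPM (SD, n = 5). Its log2 fold change was 0.27 ± 0.07 (edgeR adjusted p = 0.0131), and TfamAKO 1 lay inside the WT range. Ppt1, which removes palmitate from proteins, had a log2 fold change of 0.10 ± 0.05 (edgeR adjusted p = 0.136). All 5 TfamAKO libraries lay above WT, by a small margin: WT reached 86.2 CPM and TfamAKO began at 87.3 CPM. Lipa, the acid lipase that frees cholesterol from its esters, had 0.16 ± 0.12 (edgeR adjusted p = 0.316). Without WT 3 to 5 the Lipa value was 0.45 (edgeR adjusted p = 0.0298).

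Of the 8 membrane proteins, 7 were higher, with a median log2 fold change of 0.80. Cd68, a glycoprotein used as a marker of phagocytic macrophages and microglia, was at 6.52, 7.63, 7.17, 7.02 and 5.03 CPM in WT 1 to 5 and 14.3, 21.6, 19.1, 17.7 and 15.1 CPM in TfamAKO 1 to 5. The lowest TfamAKO library stood well above the highest WT library, and the log2 fold change was 1.40 ± 0.14 (edgeR adjusted p = 2.90e-05). Cd63, a tetraspanin of late endosomes and exosomes, was at 44.9, 52.8, 76.7, 74.0 and 62.9 CPM in WT 1 to 5 and 128, 251, 222, 238 and 172 CPM in TfamAKO 1 to 5. TfamAKO 1 was lowest of its group and above all WT libraries, and the log2 fold change was 1.70 ± 0.19 (edgeR adjusted p = 5.35e-05). Lamp1, a main glycoprotein of the lysosomal membrane and the promoter with 4 E-boxes shown above, was at 271, 345, 293, 329.6 and 301 CPM in WT 1 to 5 and 438, 568, 518, 539.6 and 489 CPM in TfamAKO 1 to 5. Its log2 fold change was 0.73 ± 0.08 (edgeR adjusted p = 5.60e-05). Laptm5, a lysosomal protein of blood-lineage cells, was at 32.3, 42.9, 42.4, 39.5 and 38.7 CPM in WT 1 to 5 and 61.5, 79.3, 67.3, 84.3 and 64.5 CPM in TfamAKO 1 to 5, with a log2 fold change of 0.87 ± 0.10 (edgeR adjusted p = 7.64e-05). None of these 4 genes had overlapping groups.

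Lamp2, which also serves chaperone-mediated autophagy, had a log2 fold change of 1.03 ± 0.15 (edgeR adjusted p = 3.26e-04). Without WT 3 to 5 it was 1.40, and Cd63 moved from 1.70 to 2.07. Scarb2, the receptor that carries glucocerebrosidase to the lysosome, had 0.72 ± 0.09 (edgeR adjusted p = 1.57e-04). Cln3, the gene of juvenile neuronal ceroid lipofuscinosis, had 0.38 ± 0.12 (edgeR adjusted p = 0.0281) with TfamAKO 1 inside the WT range. The Cln3 call was lost when any of WT 1, WT 4, WT 5, TfamAKO 2, TfamAKO 3 or TfamAKO 4 was left out, with edgeR adjusted p of 0.0520 to 0.0776. Mcoln1, the calcium-permeable channel TRPML1, had 0.09 ± 0.06 (edgeR adjusted p = 0.296), and its promoter window holds 2 copies of the core.

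Tfeb was at 7.75, 11.2, 9.83, 11.4 and 10.7 CPM in WT 1 to 5 and 14.8, 22.1, 18.5, 18.8 and 15.0 CPM in TfamAKO 1 to 5. The groups did not overlap, with TfamAKO 2 highest and WT 1 lowest, and the log2 fold change was 0.80 ± 0.14 (edgeR adjusted p = 9.22e-04). TFEB is regulated largely through its phosphorylation and its place in the cell, which mRNA levels do not measure.

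**Figure D4:**
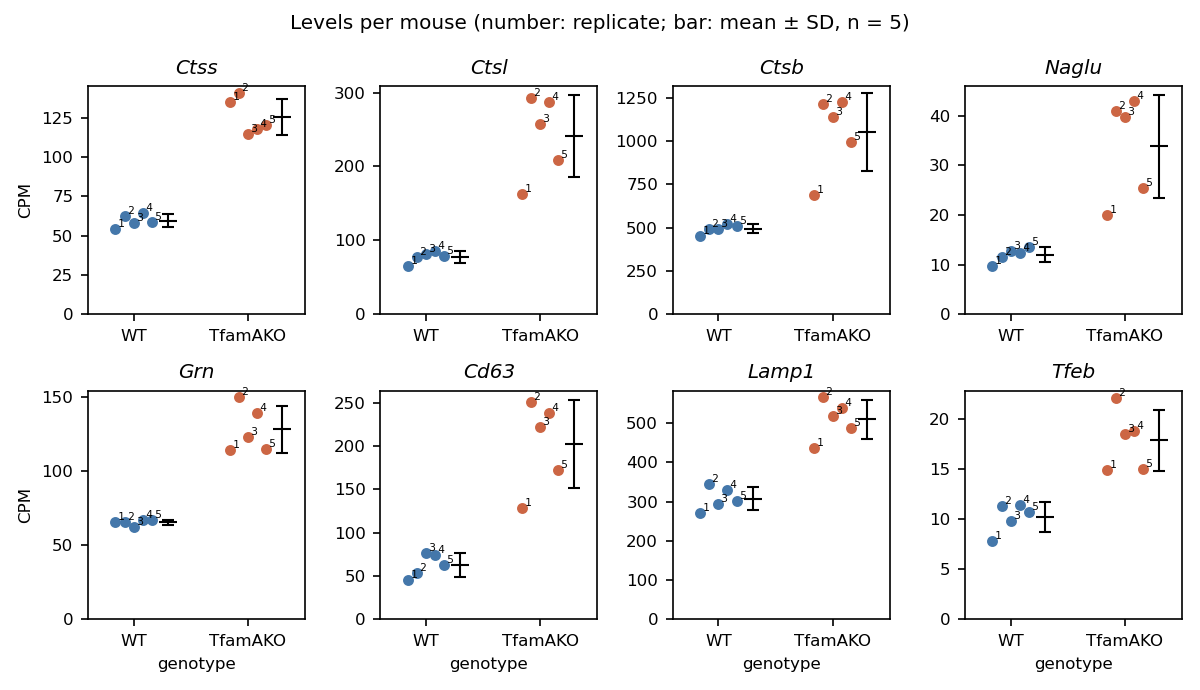
CPM (y axis, from 0) of 8 genes in each mouse by genotype (x axis); small numbers are replicate numbers, and bars show the mean ± SD (n = 5). Every TfamAKO point lies above every WT point in all 8 panels, and TfamAKO 1 is the lowest of its group in all panels but Ctss.

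The same mouse was often at the edge of its group. TfamAKO 1 was the lowest TfamAKO library in 26 of the 37 genes (70.3%), against 27.9% of all genes tested. Among the 29 called higher it was so in 23 (79.3%), against 63.0% of all genes called higher. TfamAKO 2 was the highest in 21 of the 37 (56.8%), against 18.4% of all genes tested. Among the 29 it was so in 19 (65.5%), against 35.9% of all genes called higher. WT 1, the library with the fewest counts, was the lowest WT library in 29 of the 37 (78.4%), against 25.7% of all genes tested. Among the 29 called higher it was so in 25 (86.2%), against 41.7% of all genes called higher. WT 3, WT 4 and WT 5 all lay above WT 1 and WT 2 in 15 of the 37 genes (40.5%), against 15% of all genes tested. Without WT 3 to 5, 29 of the 37 were higher, with Cln3 lost and Lipa gained. Without TfamAKO 4 and 5 the count was 27, with Cln3 and Ctsf lost. Without all 5 of these libraries it was 24, with Cln3, Ctsf, Manba, Psap and Scarb2 lost.

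Other genes of the lysosome and of its supply and control, on lists that leave out the 37, gave a mixed picture. These lists also hold genes of enzyme sorting and mTORC1 control, and cystatins, which are not all lysosomal components. Of 102 tested, 37 (36.3%) were higher and 14 lower, with a median log2 fold change of 0.06. Over all 16180 genes tested, 20.8% were higher and 16.6% lower. The other hydrolases were nearest to the 37, with 16 of 27 higher, 3 lower and a median of 0.45. Scpep1, a serine carboxypeptidase, had a log2 fold change of 1.72 ± 0.11 (edgeR adjusted p = 9.48e-07). Pld4, an exonuclease of phagocytes, had 1.19 ± 0.15 (edgeR adjusted p = 9.28e-05). Plbd2, a phospholipase B-like protein, had 0.55 ± 0.07 (edgeR adjusted p = 1.22e-04). The 3 lower genes were Dpp7, a dipeptidyl peptidase, at -0.45 ± 0.09, Ids, the iduronate sulfatase lacking in Hunter syndrome, at -0.28 ± 0.06, and Pld3 at -0.12 ± 0.04.

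Subunits of the proton pump that acidifies the lysosome went in both directions. Of 18 V-ATPase subunits tested, 3 (16.7%) were higher and 5 lower, with a median log2 fold change of -0.09. The shares over all genes tested were 20.8% higher and 16.6% lower. The higher ones were Atp6v0e at 0.83 ± 0.14 (edgeR adjusted p = 9.51e-04), Atp6v1g1 at 0.81 ± 0.09 (edgeR adjusted p = 4.32e-05) and Atp6v0a2 at 0.33 ± 0.06. The lower ones were Atp6v0b at -0.32 ± 0.06, Atp6v1g2 at -0.30 ± 0.06, Atp6v1d at -0.25 ± 0.07, Atp6v0c at -0.22 ± 0.07 and Atp6v1f at -0.20 ± 0.06. G2 is the form of the G subunit found in neurons and G1 the widespread form, and they moved in opposite directions. Summed over the subunits, the level was 4946 to 5348 CPM in WT and 4487 to 5238 CPM in TfamAKO. Neuron markers fell in the same libraries, with 4 of 7 lower and a summed level of 6423 to 7031 CPM in WT and 4958 to 6061 CPM in TfamAKO. Their part in the pump's values was not tested.

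Other lysosomal membrane proteins were higher in 7 of 21 cases and lower in 3, with a median of 0.11. Slc11a1, the phagosomal metal transporter of macrophages, had a log2 fold change of 1.90 ± 0.20 (edgeR adjusted p = 2.90e-05), and Slc29a3, a nucleoside transporter, 0.69 ± 0.08 (edgeR adjusted p = 5.54e-05). Laptm4a had 0.47 ± 0.09 and Sidt2, a nucleic acid transporter, 0.27 ± 0.06. Among 17 genes of enzyme sorting and lysosome fusion, 4 (23.5%) were higher and 2 lower, with a median of 0.00. The shares over all genes tested were 20.8% higher and 16.6% lower. M6pr, a receptor that delivers hydrolases tagged with mannose 6-phosphate, had 0.47 ± 0.08 (edgeR adjusted p = 8.55e-04). Rab7, the GTPase of late endosomes, had 0.22 ± 0.06, Vps11, a subunit of the fusion tether, 0.26 ± 0.07, and Gga3, a Golgi adaptor, was lower at -0.28 ± 0.09. Of 15 tested genes of the MiT/TFE family and of mTORC1 control at the lysosome, 5 were higher and 10 did not pass, with a median of 0.03. Tfe3, a relative of Tfeb, had 0.54 ± 0.08 (edgeR adjusted p = 2.24e-04), and Rragd, a GTPase that recruits mTORC1 to the lysosome, 0.57 ± 0.08 (edgeR adjusted p = 2.19e-04). Its relative Rragc had 0.32 ± 0.06, and Fnip1, a folliculin partner, 0.22 ± 0.06. Cystatins inhibit cysteine cathepsins, and the 4 listed ones went different ways. Cst7, cystatin F, was at 0 to 0.416 CPM in WT and 1.65 to 7.78 CPM in TfamAKO, a log2 fold change of 4.38. It passed the filter on low counts through the TfamAKO libraries alone, so its p-value is not given. Cstb had 0.88 ± 0.11 (edgeR adjusted p = 1.03e-04), and Cst6 did not pass, at -0.79 ± 0.32 (edgeR adjusted p = 0.0673). Cst3, cystatin C, an abundant secreted inhibitor, was lower, from a mean of 981 ± 83.6 to 657 ± 96.9 CPM, a log2 fold change of -0.58 ± 0.10 (edgeR adjusted p = 0.00107).

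**Figure D5:**
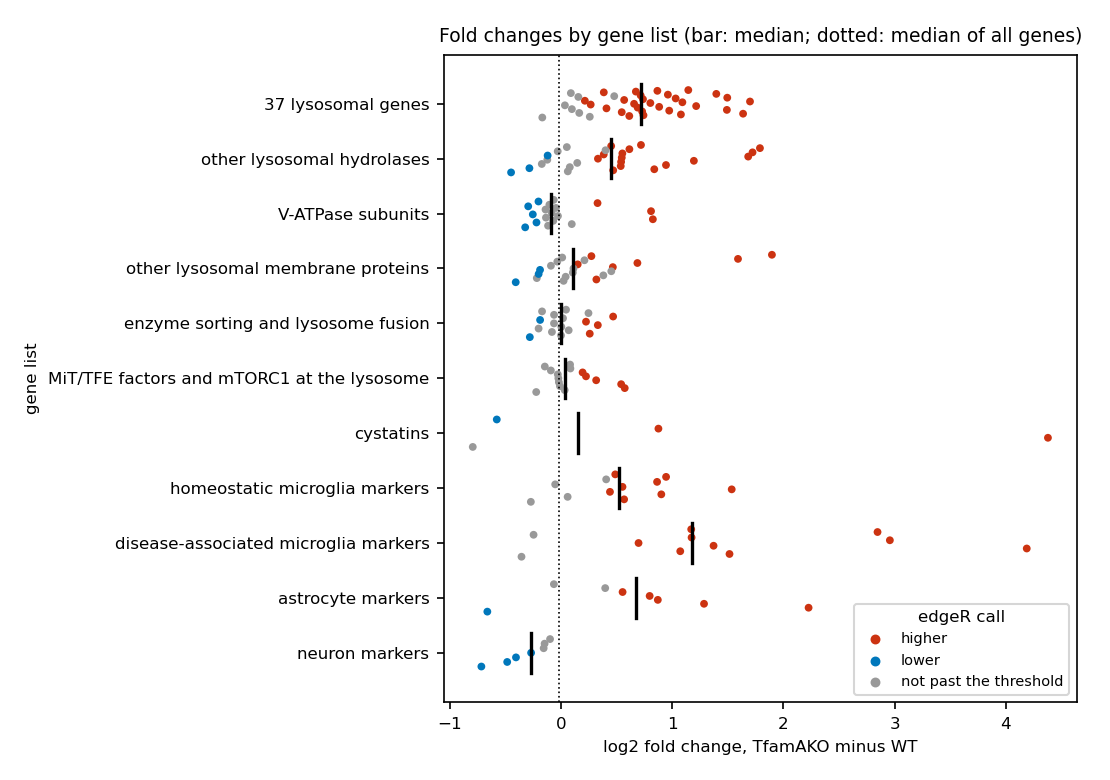
Log2 fold change, TfamAKO minus WT (x axis), of each tested gene in the gene lists (y axis); red points were higher, blue lower and grey not past edgeR's threshold. Bars are list medians and the dotted line is the median of all genes, -0.02; the 37 genes have a median of 0.72 and the V-ATPase subunits one of -0.09.

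Most of the listed microglial markers, but not all, were higher in the TfamAKO libraries. Of 12 homeostatic microglia markers, 8 were higher and 4 did not pass, with a median log2 fold change of 0.52. The 4 were Olfml3 at 0.41 ± 0.15, P2ry12 at 0.06 ± 0.11, Fcrls at -0.05 ± 0.15 and Gpr34 at -0.27 ± 0.14. The 12 markers summed to 303 to 351 CPM in WT and 521 to 637 CPM in TfamAKO. Csf1r, the receptor for the survival factor of microglia and the marker of this list with the most CPM, had a log2 fold change of 0.90 ± 0.10 (edgeR adjusted p = 4.06e-05). Of 11 markers of disease-associated microglia, 9 were higher, with a median of 1.17. The other 2, Lpl at -0.25 ± 0.16 and Igf1 at -0.36 ± 0.19, did not pass. The 11 markers summed to 157 to 193 CPM in WT and 306 to 465 CPM in TfamAKO. Itgax, counted among the 9, was at 0.184 to 0.434 CPM in WT. It passed the filter on low counts through the TfamAKO libraries alone. Markers of border macrophages were scarce, at 2.95 to 9.21 CPM summed in WT and 6.52 to 19.9 CPM in TfamAKO, with 2 of 5 tested higher. Of 8 astrocyte markers 5 were higher and 1 lower, with summed levels of 3656 to 4501 CPM in WT and 4638 to 6971 CPM in TfamAKO.

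The lysosomal genes were also fitted with the mean log2 CPM of the homeostatic microglia markers as a covariate. Scores of WT libraries were 4.18 to 4.39 and those of TfamAKO libraries 4.68 to 4.89, so it separated the genotypes by itself. With it in the model, edgeR called 0 of the 37 genes and 21 of all 16180. At an unadjusted p under 0.05, 8 of the 37 were higher and 0 lower. The same count over all genes was not made, so the 8 cannot be set against a background. The median log2 fold change of the 37 was then 0.35. Because the score and the genotype do not overlap, their shares in the lysosomal difference cannot be told apart in these libraries.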

How the data were processed

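Hippocampal RNA of 10 mice was measured, 5 WT and 5 TfamAKO. Stranded mRNA libraries were used, per the labels' protocols. The authors deposited estimated counts per gene, and the submitters' processing notes name Salmon and DESeq2 1.26.0. Every deposited count was already whole, so rounding changed none. The authors also deposited a normalized signal per gene, used only as an alternative. The sources used here give neither its recipe nor a genome build or annotation.

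Counts of 20156 genes were filtered with filterByExpr (minimum count 10, which left 16180), scaled by TMM and tested with the quasi-likelihood test of edgeR 4.0.16 in R 4.3.3. P-values were adjusted by Benjamini-Hochberg over all genes tested, with a threshold of 0.05. CPM use the scaled library sizes. DESeq2 1.42.0, limma-voom (limma 3.58.1), other scalings and filters, glmTreat against a 1.2-fold change, a replicate block, 2 covariates, and fits without libraries that stood apart or without each library were alternatives. The fit without WT 3 to 5 and TfamAKO 4 and 5 together was added after seeing the data. No 2 libraries agreed within sampling noise. The series' design text counts 5 mice per group, so p-values measure the spread between mice.

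The 37 genes and all gene lists were chosen with earlier results of these data known. By rule, values in every library are given for Tfam, Tfeb and the up to 4 genes of each role with the smallest p, and up to 4 genes with the smallest p are named per pathway list, besides any lower ones. 1 gene that the rule names is not reported here. Values by library for Ctsc and Glb1, and limits of Ppt1, were added after their values were seen. E-box matches were searched in RefSeq promoter windows by symbol.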

Additional observations from a re-analysis of the deposited data

Results flagged for a closer look

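In groups of 5 libraries, a value was singled out when its gap to the nearest library was large for the range of its group by Dixon's criterion, which chance meets in about 1 of 20 groups. Of 76 groups examined, 3 had such a value. Ctsz was at 31.35 CPM in WT 1, while the other WT libraries ran from 43.1 to 44.87 CPM. Tfam was at 20.59 CPM in WT 3, while the other WT libraries ran from 30.4 to 33.04 CPM. Tfam was at 19.63 CPM in TfamAKO 3, while the other TfamAKO libraries ran from 22.68 to 23.57 CPM.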

How the results depend on the processing

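Across the 25 alternatives other than the microglia covariate, 24 of the 37 lysosomal genes kept their direction and their side of the threshold in every one, 22 of them called higher. Leaving out each library in turn gave 27 to 30 genes higher, 0 lower, a median log2 fold change of 0.666 to 0.779 and 4828 to 7094 of all genes called. Counted over all genes past the threshold, there were 2770 with glmTreat, 2752 without WT 3 to 5 and 1851 without WT 3 to 5 and TfamAKO 4 and 5, against 6048, with fewer samples in the latter fits. With the homeostatic microglia covariate, 0 of the 37 were called, 21 of all genes were called, and the median was 0.3514. That covariate turned the log2 fold changes of Ctsf (-0.078), Ctsk (-0.2383), Gla (-0.3093), Glb1 (0.04861), Gusb (-0.4931), Man2b1 (-0.03326), Neu1 (-0.2687) and Ppt1 (-0.04952). Neu1 also turned to -0.01429, -0.0143 and -0.01425 in the deposited normalized values (pseudocounts 1, 0.5 and 5), to -0.006952 without TfamAKO 4 and 5, and to -0.03884 without WT 3 to 5 and TfamAKO 4 and 5. That last fit also turned Glb1 to 0.03281 and Mcoln1 to -0.01414. The cause was not tested. Ctsf also lost the call with DESeq2 size factors, upper-quartile scaling, no filter and limma-voom, and Ctsf and Cln3 lost it in the deposited normalized values. With glmTreat, Cln3, Ctsc, Ctsf, Man2b1 and Psap lost the call and 24 of the 37 stayed higher. With a replicate block 30 were higher, the added gene being Gusb (0.2669, edgeR adjusted p = 0.0478). Same-numbered libraries did not pair, with correlations of their deviations from -0.142 to 0.0691.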

Other observations

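Markers of the remaining cell types gave these values. Endothelial markers were higher in 3 of 4 cases, with a median log2 fold change of 1.04 and summed levels of 140.4 to 184 CPM in WT and 205 to 367 CPM in TfamAKO. Markers of pericytes and fibroblasts were higher in 2 of 4 cases, with a median of 0.51. Of 6 oligodendrocyte markers 1 was higher, and 3 of 3 markers of their precursors did not pass the threshold. Choroid plexus markers were lower in 10 of 10 cases, with the high WT levels in WT 3, WT 4 and WT 5. Their sum was 46.3 CPM in WT 1 and 166 CPM in WT 2, near the TfamAKO libraries at 40.9 to 136 CPM. Of 8 markers of hippocampal neurons 1 was lower, and their summed level was 816 to 892 CPM in WT and 461 to 836 CPM in TfamAKO, with TfamAKO 5 at 461 CPM. Of the monocyte and neutrophil markers only Ly6c2 was tested, and it was higher, with the list at 0.545 to 1.31 CPM summed in WT and 0.699 to 2.50 CPM in TfamAKO. No lymphocyte marker passed the filter on low counts, and the list summed to at most 1.44 CPM in any library. The part of these cell types in the lysosomal values was not tested.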
